A study of Mus musculus with 8 samples.

Results

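The EGF family ligands Egf, Tgfa, Areg, Ereg, Hbegf and Btc and the ERBB receptors Egfr, Erbb2, Erbb3 and Erbb4 were examined in bulk RNA of mouse prostate. These 10 genes were taken by symbol from a table of 27036 genes, and each symbol stood on 1 row. The filter for testing, more than 1 CPM (the count scaled to the size of the library) in at least 2 libraries, left 14034 genes and 9 of the 10 members. Ereg did not pass it, and Areg passed it through PCa 1, PCa 2 and PIN 1 alone.

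The series held 8 libraries: 3 of normal prostate labelled WT-control (WT), 3 of prostatic intraepithelial neoplasia (PIN), the lesion that precedes carcinoma, and 2 of prostatic adenocarcinoma (PCa). PIN and PCa tissues came from R26 mTmG/hAR:Osr1 Cre/+ mice, labelled hARtg-Osr1Cre, in which Cre driven by the Osr1 promoter switches on a transgene for the human androgen receptor and a membrane GFP in the same cells. Per the study, the normal tissue came from sex- and age-matched R26 mTmG/+:Osr1 Cre/+ mice, so all groups carried the Cre and the reporter, and the strains were of a background mixed from C57BL/6 and another inbred strain. The age of the animals behind each library is not given in the sources used here, and the table has no row for the human transgene, so the labels were not checked against it. Nothing in the labels ties a library to 1 animal, so the p-values measure the spread between these samples.

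EGF family ligands are made as membrane-anchored precursors, and proteases such as ADAM10 and ADAM17 cut the active domain free. EGF, TGF-alpha and amphiregulin bind EGFR, whereas betacellulin, heparin-binding EGF and epiregulin bind both EGFR and ERBB4. Bound receptors pair and phosphorylate each other. ERBB2 has no known soluble ligand and serves as the partner of the other receptors, and ERBB3, which binds neuregulins, has almost no kinase activity of its own and recruits PI3-kinase. In the prostate, EGF is secreted by the epithelium in large amounts.

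The active part of each ligand is an EGF-like module, in which 6 cysteines at fixed distances form the disulfide bonds that fold the receptor-binding domain. Its coding DNA is shown for 5 of the ligands because it is the feature that defines the family. The sequences were read from transcripts annotated on mm9, run from the first to the last cysteine codon, and carry the 6 cysteine codons in capitals.
Egf (chr3:129389240-129393768, minus strand, exons 20 to 21 of 24): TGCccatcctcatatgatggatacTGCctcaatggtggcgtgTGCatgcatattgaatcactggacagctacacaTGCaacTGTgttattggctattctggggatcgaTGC
Tgfa (chr6:86213194-86219954, plus strand, exons 3 to 4 of 6): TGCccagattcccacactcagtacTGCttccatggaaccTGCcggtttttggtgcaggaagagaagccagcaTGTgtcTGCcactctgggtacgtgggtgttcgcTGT
Areg (chr5:91572640-91573390, plus strand, exons 3 to 4 of 6): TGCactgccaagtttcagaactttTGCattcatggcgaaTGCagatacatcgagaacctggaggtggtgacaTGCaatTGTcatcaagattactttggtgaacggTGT
Ereg (chr5:91517522-91518137, plus strand, exons 3 to 4 of 5): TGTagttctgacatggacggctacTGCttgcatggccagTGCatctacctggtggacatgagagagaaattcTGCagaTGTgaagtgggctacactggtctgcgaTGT
Btc (chr5:91791447-91795223, minus strand, exons 3 to 4 of 6): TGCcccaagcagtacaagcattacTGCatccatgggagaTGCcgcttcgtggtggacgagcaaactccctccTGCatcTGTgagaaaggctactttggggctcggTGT

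Of the 5 modules shown, which leave out that of Hbegf, the 4 other than that of Egf shared 1 spacing, with 7, 4, 10, 1 and 8 codons between successive cysteines and 108 bases in all. Egf had 5 codons in the second gap and was 111 bases long. In each of the 5 genes the module was split between 2 exons. The modules were picked by the spacing of their cysteine codons, so the search itself set part of the shared spacing. A module that met this search, which was not limited to exactly the gaps given here, was found in 16 of 22594 protein-coding genes, or 0.0708%. Over the 108 bases, Tgfa and Btc were the most alike of the 6 pairs, with 62% identical bases, and Tgfa and Ereg the least, with 45.4%. Areg shared 57.4% of its bases with Btc and 53.7% with its neighbor Ereg.

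Total counts per library ranged from 21751803 to 29730420. Levels are given as CPM scaled by the trimmed mean of M-values (TMM), and levels of different genes were compared only per kilobase of exon or as TPM, which scales the counts to both exon length and library size. Within groups, gene levels correlated with Spearman's rho of 0.923 to 0.961 in WT, 0.964 to 0.983 in PIN and 0.839 between the 2 PCa libraries. WT 1 stood apart in genes of the seminal vesicle, a neighboring gland, whose 5 markers summed to 15615 CPM there against 0.634 and 0.769 in WT 2 and WT 3, 32.5 to 84.4 in PIN and 2868 and 692 in PCa. WT 2 was the highest library for the luminal keratin gene Krt8, with 975 CPM against 198 and 209 in the other WT libraries. The 6 smooth muscle markers summed to 2021 to 4863 CPM in WT, 3197 to 5859 in PIN and only 42.5 and 19.7 in PCa, and all 6 were called lower in PCa in both comparisons. In bulk tissue, fewer cells of a type and less RNA per cell cannot be told apart.

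**Figure D1:**
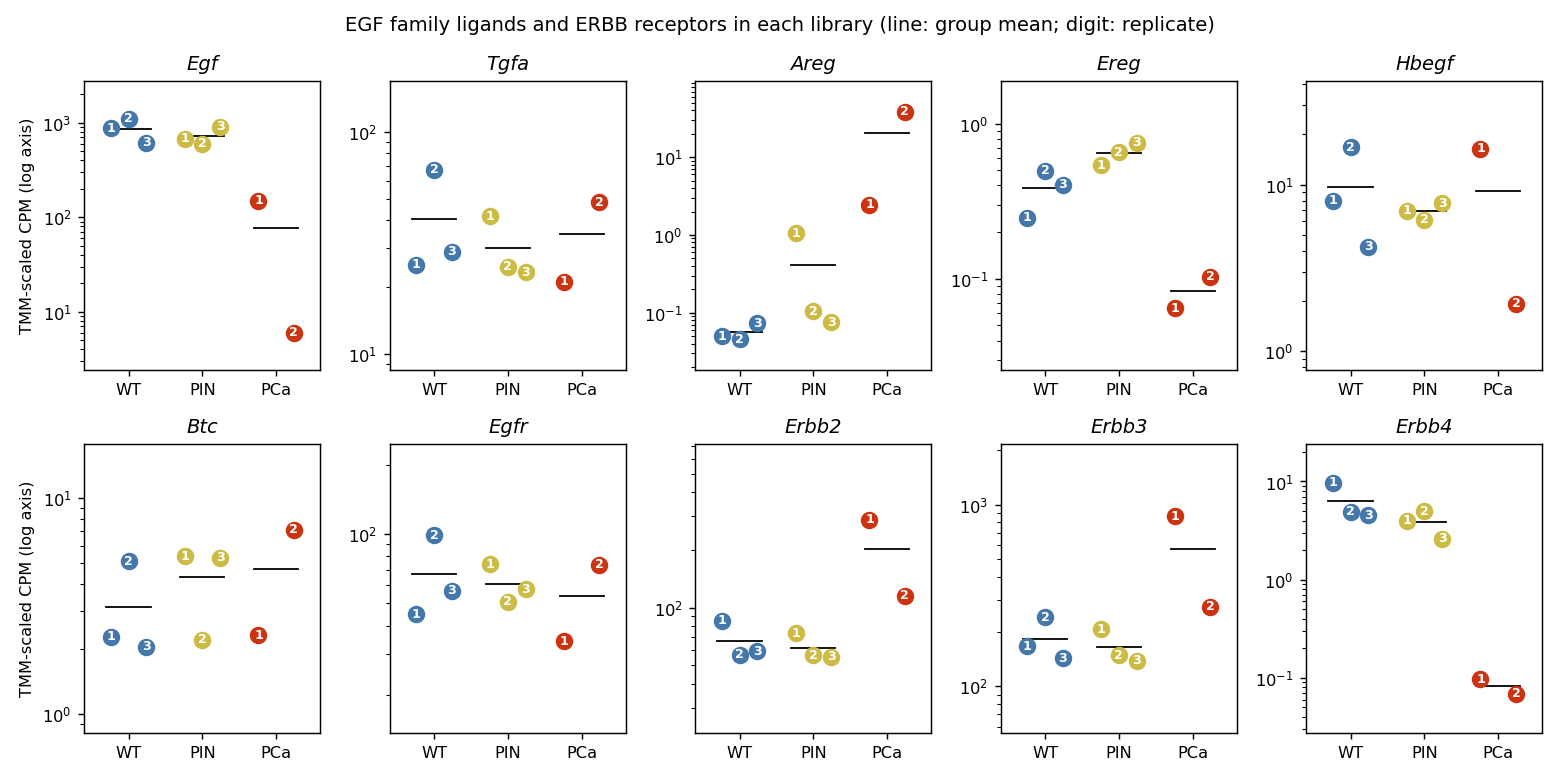
Level of each ligand and receptor in the 8 libraries, as TMM-scaled CPM on a log axis that differs between panels. Points are libraries with their replicate number, and lines are group means. Areg rises from under 0.1 CPM in WT to 38.3 in PCa 2, Erbb4 falls from 4.50 or more in WT to under 0.1 in PCa, and Erbb2 and Erbb3 lie above every WT and PIN library in both PCa libraries.

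To ask which ligands and receptors differed between normal prostate, PIN and PCa, each pair of groups was compared with edgeR's quasi-likelihood test, and a gene was called at a change over 2-fold and a Benjamini-Hochberg adjusted p under 0.05 over all genes tested. In PCa against WT, 3 of the 9 members tested were called, beside 8.54% of all genes tested. Areg and Erbb2 were called higher, as were 4.35% of genes, and Erbb4 lower, as were 4.18%. Against PIN, 2 of 9 members were called in PCa, beside 5.72% of all genes. Erbb2 was called higher, as were 2.55% of genes, and Erbb4 lower, as were 3.17%. No member was called in PIN against WT, where edgeR called 0 genes (0%), with 492 genes and no member at an unadjusted p under 0.05, and DESeq2 called 39 genes and no member. The median log2 fold change of the members was -0.15 for PIN and -0.08 for PCa relative to WT, and 0.21 for PCa relative to PIN, beside -0.02, 0.01 and 0.07 over all genes tested. Areg, Erbb2 and Erbb3 were above all WT libraries in both PCa libraries, as were 17.7% of genes, and Egf and Erbb4 below them, as were 19.6%, so that 5 of 9 members did not overlap, beside 37.3% of all genes. The same 5 members were separated from PIN in the same directions, where 21.1% of genes were above, 23.2% below and 44.3% either. Between PIN and WT, 1 member of the 9 tested was separated, Areg, where 6.48% of genes were above, 6.38% below and 12.9% either.

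**Figure D2:**
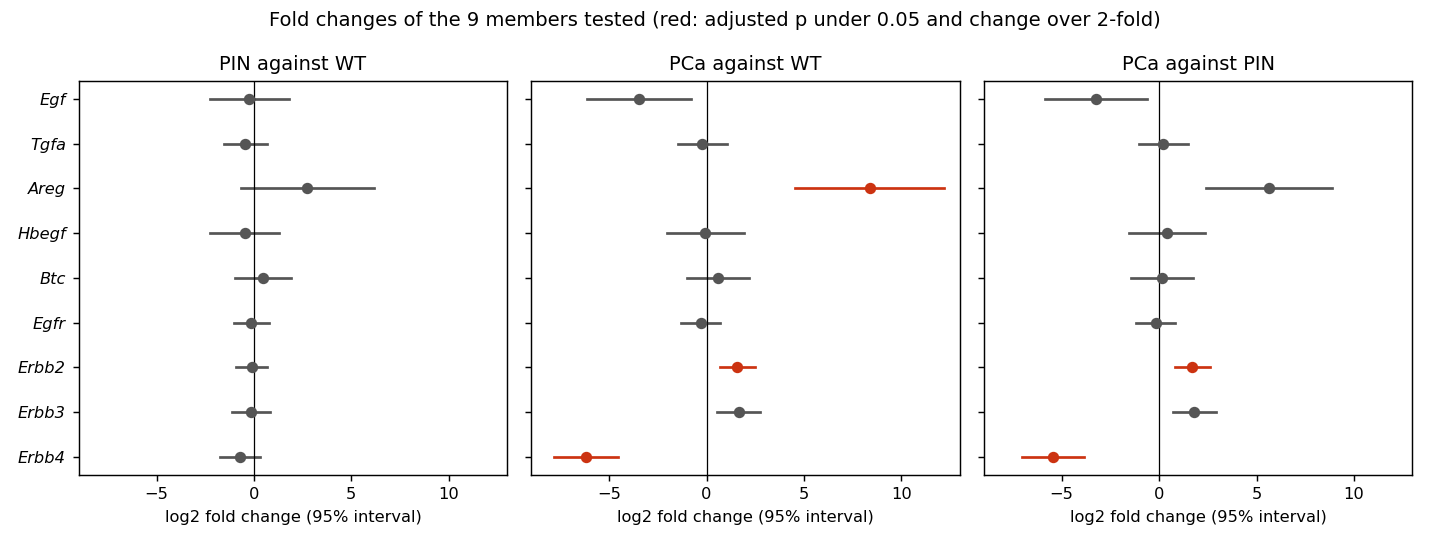
Log2 fold change of the 9 members tested, in a panel for each pair of groups, with 95% intervals from edgeR's quasi-likelihood fit. Red marks called genes. All 9 intervals span 0 in PIN against WT, whereas those of Egf, Areg, Erbb2, Erbb3 and Erbb4 lie on 1 side of 0 in both comparisons with PCa.

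Egf (chr3:129380493-129458240, minus strand), the founding ligand of the family, was the most abundant of the 10 members per kilobase in every WT and PIN library. Its level was 866, 1099 and 609 CPM in WT 1, 2 and 3, and 678, 598 and 904 CPM in PIN 1, 2 and 3. In PCa 1 it was 149 CPM and in PCa 2 only 6.03 CPM. WT and PIN overlapped throughout, and both PCa libraries lay below all 6 of them, though 24.7-fold apart from each other. The change in PCa against WT was -3.47 ± 1.15 (log2, SE, n = 2 and 3) and did not pass edgeR's quasi-likelihood test (Benjamini-Hochberg adjusted p = 0.10). Against PIN it was -3.23 ± 1.13 (adjusted p = 0.141).

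The result for Egf changed with the libraries and the test. With PCa 1 left out, the Egf change against WT was -7.14 (edgeR adjusted p = 0.0014), and with PCa 2 left out it was -2.51 (edgeR adjusted p = 0.0249), so that Egf was called with either PCa library alone, with the lone library assumed to vary like the other groups. DESeq2 and limma-trend also called Egf lower in both comparisons with PCa. Per kilobase, Egf ranked 1 of 10 in WT and PIN, 3 in PCa 1 and 7 in PCa 2.

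The genes whose profile over the 8 libraries was closest to that of Egf were Prom1, Ace and Hdgfrp3, by the mean absolute difference of centred log2(CPM + 1) values. That difference was 0.30, 0.40 and 0.41, where the median over all genes was 1.72. Prom1, which encodes the membrane glycoprotein prominin-1, was at 289 to 376 CPM in WT, 369 to 494 in PIN and 65.5 and 2.09 in PCa 1 and 2. Ace, the angiotensin-converting enzyme, was at 513 CPM in PCa 1 and 10.8 in PCa 2, from 1009 to 1234 in WT. Since these genes were picked for their likeness to Egf over the same 8 libraries, the gap between PCa 1 and PCa 2 that they share with it is a description.

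Areg (chr5:91568641-91577458, plus strand) encodes amphiregulin, a ligand of EGFR. It had 1, 1 and 2 counts in WT 1, 2 and 3, or 0.0494, 0.0453 and 0.0732 CPM. PIN 1 had 29 counts (1.04 CPM), whereas PIN 2 and PIN 3 had 3 and 2 counts, near the WT level. PCa 1 had 76 counts (2.45 CPM) and PCa 2 had 1117 (38.3 CPM). Both PCa libraries were thus above all others, and PCa 2 was 15.7-fold above PCa 1.

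The fitted change of Areg in PCa against WT was 8.37 ± 1.64 (log2, SE, n = 2 and 3), called by edgeR's quasi-likelihood test (Benjamini-Hochberg adjusted p = 0.0248). Because WT held 4 counts in all, the ratio of summed levels is better given by its counting interval, which covers counting error only. It was 345 (95% exact interval 134 to 1267) for both PCa libraries, 42.6 (16.0 to 160) for PCa 1 and 667 (260 to 2451) for PCa 2. Against PIN the change was 5.63 ± 1.39 (edgeR adjusted p = 0.0575). The call against WT was lost when any 1 WT library was left out (edgeR adjusted p = 0.0754, 0.0682 and 0.0919 without WT 1, 2 and 3, at changes of 8.25 to 8.61). Without PCa 2 the change was 5.33 (edgeR adjusted p = 0.0566), and without PCa 1 it was 9.28 (edgeR adjusted p = 0.0045).

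All 3 PIN libraries exceeded all 3 WT libraries in Areg, as did 6.48% of genes, but the lowest PIN value, 0.0753 CPM, rested on 2 counts. The fitted change in PIN against WT was 2.74 ± 1.48 (n = 3 and 3), with an adjusted p of 1 in edgeR's quasi-likelihood test.

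The profiles closest to that of Areg were those of Gm15055, Igf2bp2 and Cdh17, with mean absolute differences of 0.19, 0.23 and 0.24 on the centred log2 scale (median over all genes 1.27). Igf2bp2, an RNA-binding protein, was at 1.78 to 2.63 CPM in WT, 1.48 to 4.0 in PIN, 9.30 in PCa 1 and 76.7 in PCa 2. Cdh17, the liver-intestine cadherin, was at 0.901 CPM in PCa 1 and 43.5 in PCa 2, with at most 0.648 elsewhere. Gm15055 was listed at 0 in all WT libraries and stood at 2.00 and 33.6 CPM in PCa 1 and 2. These 3 genes were chosen for likeness over the same 8 libraries, so their agreement with Areg is a description.

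The 100 bases before the Areg start are shown because Areg had the widest fitted change of the 9 members tested in PCa against WT, which rests on 4 counts in WT. By the range of log2(CPM + 1) over the libraries Egf was wider, at 7.29 against 5.23. They are the RefSeq sequence, which occurred once in mm9 (chr5:91568525-91568624, plus strand), with 2 motif matches in capitals.
Areg upstream: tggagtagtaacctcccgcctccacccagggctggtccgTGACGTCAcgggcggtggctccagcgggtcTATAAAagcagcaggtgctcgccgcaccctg
The first run in capitals is TGACGTCA, the cyclic AMP response element, 61 bases before the start, and the second is TATAAA, the TATA box, 31 bases before it. Each motif was searched on both strands in windows of 300 bases, from 250 before to 50 after each annotated start. Of 32851 mouse promoters of that length, 1.79% held TGACGTCA and 13.6% held TATAAA. The windows of Egf, Tgfa, Btc, Egfr, Erbb2 and Erbb4 held no match to these motifs, nor to TGACTCA (AP-1, in 5.2% of promoters), CTTTGAT (TCF/LEF, 3.73%), CACGTG (E-box, 7.15%) or the palindromic androgen response element (0.00913%). Such a match is a description of letters and not a binding site.

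Epgn, Ereg, Areg and Btc are neighbors on chromosome 5, the only 4 genes of the table within 375 kb, so their levels can be compared along 1 stretch of genome. Epgn, which encodes epigen, was at 0 to 0.274 CPM in every library. Ereg (chr5:91503643-91522675, plus strand), which encodes epiregulin, was low throughout, with 0.247, 0.498 and 0.403 CPM in WT 1, 2 and 3 and 0.540, 0.654 and 0.753 in PIN 1, 2 and 3. It had 2 counts in PCa 1 and 3 in PCa 2 (0.0644 and 0.103 CPM).

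PIN was above WT in every library for Ereg, as in 6.48% of genes tested, and PCa below WT, as in 19.6%. Ereg itself was not among the genes tested. Its direction in PCa was opposite to that of its neighbor Areg. With 27 counts in WT, 54 in PIN and 5 in PCa, the ratio of summed levels was 1.67 (95% exact interval 1.03 to 2.76) in PIN against WT and 0.214 (0.0644 to 0.564) in PCa against WT. These intervals cover counting error only, and Ereg was not tested between groups.

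Btc (chr5:91786287-91831939, minus strand), which encodes betacellulin, was at 2.27, 5.08 and 2.05 CPM in WT 1, 2 and 3, at 5.36, 2.20 and 5.27 in PIN 1, 2 and 3, and at 2.32 and 7.10 in PCa 1 and 2. Its 3 groups overlapped, and its change in PCa against WT was 0.59 ± 0.68 (n = 2 and 3, edgeR adjusted p = 0.621, 95% interval -0.99 to 2.16). Within this cluster, then, only Areg was called in any comparison, and of Epgn, Ereg, Areg and Btc only Areg and Btc were tested.

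Tgfa (chr6:86145420-86225151, plus strand) encodes transforming growth factor alpha, an epithelial ligand of EGFR. It was at 25.3, 67.6 and 28.8 CPM in WT 1, 2 and 3, at 41.6, 24.7 and 23.3 in PIN 1, 2 and 3, and at 21.2 and 48.2 in PCa 1 and 2. No group separated from another, and the change in PCa against WT was -0.23 ± 0.54 (n = 2 and 3, edgeR adjusted p = 0.822, 95% interval -1.48 to 1.03). Its sign turned to 0.36 without WT 2, the highest library for Tgfa.

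Hbegf (chr18:36664583-36675459, minus strand), which encodes heparin-binding EGF, was at 8.01, 16.7 and 4.25 CPM in WT 1, 2 and 3. PIN was even, at 6.95, 6.16 and 7.72 CPM, whereas PCa 1 was at 16.4 and PCa 2 at 1.92. The PCa libraries lay on both sides of PIN, 8.53-fold apart, and the change in PCa against WT was -0.08 ± 0.85 (n = 2 and 3, edgeR adjusted p = 0.967, 95% interval -2.05 to 1.9). It was 0.78 without PCa 2 and -2.31 without PCa 1.

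Per kilobase, the summed level of the 6 ligands was 192, 257 and 138 CPM per kb in WT 1, 2 and 3, 159, 135 and 201 in PIN 1, 2 and 3, and 46.6 and 49.4 in PCa 1 and 2. Although the PCa sums were alike and below every other library, their makeup was not. Egf made up 89.5% to 94.3% of the ligand TPM in WT and 89.3% to 94.2% in PIN, 66.9% in PCa 1 and 2.55% in PCa 2. In PCa 1 the rest was mainly Hbegf at 14.8% and Tgfa at 12.1%, with Areg at 4.38%. In PCa 2 Areg made up 64.7%, Tgfa 25.9% and Btc 5.14%. Without Egf, the ligands summed to 15.4 CPM per kb in PCa 1, within the WT range of 10.3 to 27.0, and to 48.1 in PCa 2, above it.

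**Figure D3:**
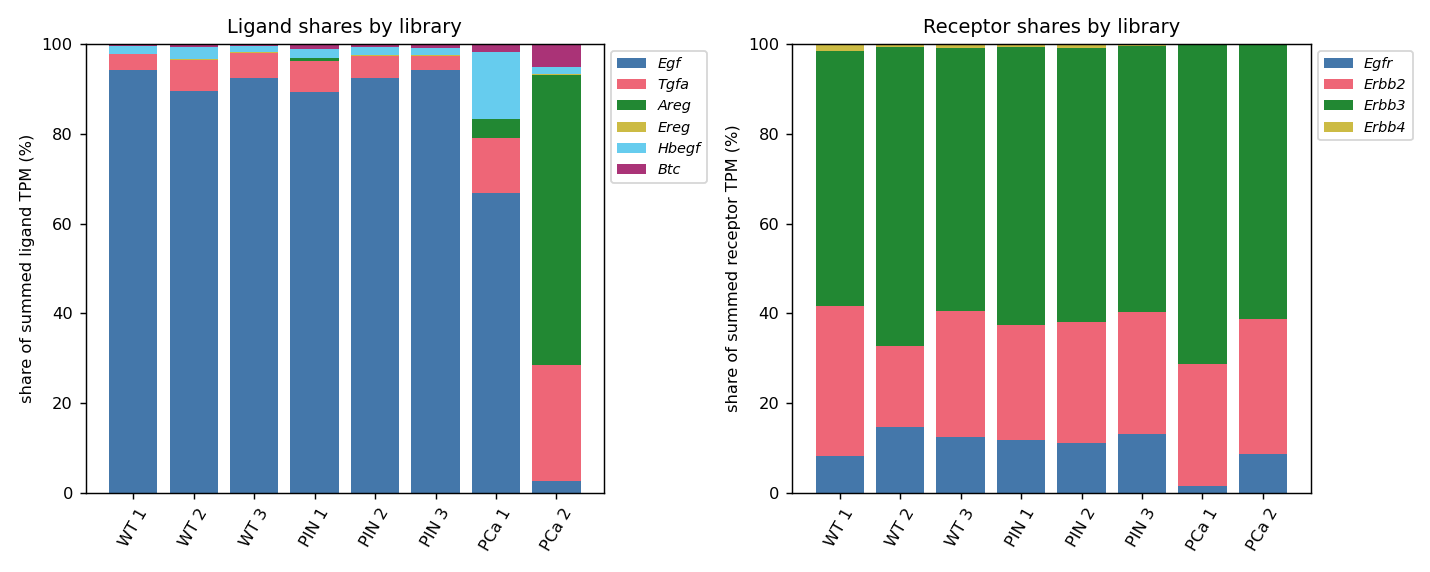
Share of each ligand in the summed TPM of the 6 ligands (left) and of each receptor in the summed TPM of the 4 receptors (right), in percent per library. Egf fills 89.3% or more of the ligand bar in WT and PIN, 66.9% in PCa 1 and 2.55% in PCa 2, where Areg fills 64.7%, while Erbb3 is the largest receptor share in all 8 libraries.

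Among the receptors, Erbb2 (chr11:98273784-98299030, plus strand), the ligandless partner, was at 85.4, 56.8 and 59.2 CPM in WT 1, 2 and 3 and at 73.3, 56.4 and 55.5 in PIN 1, 2 and 3. PCa 1 was at 287 CPM and PCa 2 at 116. WT and PIN overlapped, and both PCa libraries were above all 6. The change was 1.58 ± 0.38 against WT (n = 2 and 3) and 1.71 ± 0.38 against PIN, both called by edgeR's quasi-likelihood test (Benjamini-Hochberg adjusted p = 0.044 and 0.0455).

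These calls were near the threshold and were lost in 11 of 16 alternatives in each comparison. With upper-quartile scaling the edgeR adjusted p was 0.054 against WT and 0.0607 against PIN, with only the 2 groups fitted 0.151 and 0.0953. Without PCa 1 the Erbb2 change was 0.80 against WT (edgeR adjusted p = 0.111) and 0.92 against PIN (edgeR adjusted p = 0.0778). Leaving out any 1 of the WT or PIN libraries also ended both calls, with edgeR adjusted p of 0.0674 to 0.133 against WT and 0.0525 to 0.175 against PIN, at changes of 1.48 to 1.80 and 1.63 to 1.87. The lowest p against WT, 0.0674, came without WT 1, the library with seminal vesicle transcripts. Erbb2 overlaps the antisense gene 1810046J19Rik by 9 bases. That gene was at 76.1 to 92.1 CPM in WT, 55.4 to 74.1 in PIN and 36.9 and 52.9 in PCa, and the part of shared reads in the Erbb2 levels was not tested.

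Erbb3 (chr10:128004579-128026708, minus strand), the neuregulin receptor that recruits PI3-kinase, followed Erbb2. Its level was 166.5, 239 and 143 CPM in WT 1, 2 and 3, 206, 148 and 138 in PIN 1, 2 and 3, and 864 and 274 in PCa 1 and 2. Both PCa libraries were again above all others, and PCa 1 was 3.15-fold above PCa 2. The change was 1.64 ± 0.47 against WT (n = 2 and 3) and 1.79 ± 0.48 against PIN, and neither passed edgeR's quasi-likelihood test (Benjamini-Hochberg adjusted p = 0.0721 and 0.0696).

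Without PCa 2 the Erbb3 change against WT was 2.26 (edgeR adjusted p = 0.0127), and without PCa 1 it was 0.60 (edgeR adjusted p = 0.296). DESeq2 called Erbb3 in both comparisons. For both Erbb2 and Erbb3, PCa 1 was therefore the library farther from WT, whereas for Egf and Areg it was PCa 2.

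Erbb4 (chr1:68078760-69154633, minus strand), a receptor for neuregulins and for betacellulin-type ligands, had 196, 109 and 123 counts in WT 1, 2 and 3, or 9.69, 4.94 and 4.50 CPM. PIN 1, 2 and 3 had 111, 144 and 69 counts, or 4.0, 4.96 and 2.6 CPM. PCa 1 had 3 counts and PCa 2 had 2, or 0.0965 and 0.0686 CPM. All PCa values lay far below all others, and the summed level in WT was 74.1 times that in PCa (95% exact interval 31.5 to 229, counting error only).

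The Erbb4 change was -6.19 ± 0.71 in PCa against WT (n = 2 and 3) and -5.46 ± 0.69 in PCa against PIN, both called by edgeR's quasi-likelihood test (Benjamini-Hochberg adjusted p = 0.00694 and 0.0108). Erbb4 was called in both comparisons under all 16 alternatives, which gave adjusted p-values up to 0.0414. Without WT 1 the change against WT was -5.76 (edgeR adjusted p = 0.02). In PIN against WT the change was -0.73 ± 0.45 (n = 3 and 3, edgeR adjusted p = 1), with groups that overlapped.

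Egfr (chr11:16652206-16818161, plus strand), the receptor shared by all 6 ligands, was at 44.7, 98.6 and 56.8 CPM in WT 1, 2 and 3, at 74.0, 50.9 and 57.5 in PIN 1, 2 and 3 and at 34.2 and 73.5 in PCa 1 and 2. The 3 groups overlapped. The change was -0.31 ± 0.43 in PCa against WT (n = 2 and 3, edgeR adjusted p = 0.689, 95% interval -1.31 to 0.69). Its sign turned to 0.08 without WT 2.

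Summed per kilobase, the 4 receptors were at 48.8, 59.7 and 40.4 CPM per kb in WT 1, 2 and 3, 55.2, 40.3 and 38.9 in PIN 1, 2 and 3 and 202 and 74.3 in PCa 1 and 2, so that in PCa, unlike in WT and PIN, the receptor sum exceeded the ligand sum. Erbb3 was the most abundant receptor in all 8 libraries, with 56.7% to 66.5% of the receptor TPM in WT, 59.1% to 62.1% in PIN and 71.2% and 61.4% in PCa. Erbb2 followed with 18.3% to 33.6% in WT and 27.3% and 29.9% in PCa, and Egfr with 8.09% to 14.6% in WT and 1.5% and 8.73% in PCa.

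The mean share in PCa minus that in WT was 5.67 points for Erbb3, 1.95 for Erbb2, -6.57 for Egfr and -1.05 for Erbb4. A two-sided exact permutation test over the 3 WT and 2 PCa libraries gave p = 0.4, 0.9, 0.3 and 0.1, and 0.1 is the smallest p this design allows, so none of these shares could pass 0.05. With Benjamini-Hochberg adjustment over the 4 shares these exact p-values became 0.533, 0.9, 0.533 and 0.4. The Erbb2 share difference was -2.24 points without WT 2, that of Erbb3 was 0.755 without PCa 1 and 10.6 without PCa 2, and that of Egfr was -2.95 and -10.2. Of counts not divided by gene length, the differences were 9.89 points for Erbb3, 3.05 for Erbb2, -10.9 for Egfr and -2.03 for Erbb4.

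By level per kilobase, the order in WT was Egf, Erbb3, then Erbb2 and Tgfa, then Egfr, Hbegf, Btc, Erbb4, Ereg and Areg. Erbb2 and Tgfa exchanged places in WT 2, and their WT ranges, 10.9 to 16.4 and 6.73 to 18.0 CPM per kb, overlapped. The ranges of Tgfa and Egfr, of Egfr and Hbegf, of Hbegf and Btc, of Btc and Erbb4 and of Ereg and Areg overlapped as well. In PCa Erbb3 ranked first, at 144 and 45.6 CPM per kb, and Erbb4 last, at 0.0078 and 0.0056, while Areg moved from rank 10 in every WT library to 7 in PCa 1 and 2 in PCa 2.

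The remaining genes of the pathway were taken as 5 lists. Of the other ERBB ligands, epigen and the 4 neuregulins, 3 of 5 were tested and edgeR called none in any comparison. In PCa against WT it called 8.54% of all genes, with 1 of the 3 at an unadjusted p under 0.05. DESeq2 called 1, Nrg2, lower in PCa against both WT and PIN (adjusted p = 0.0237 and 0.00222), beside 17.7% and 14.1% of all genes. By limma-trend Nrg2 was called against PIN (adjusted p = 0.036), beside 7.13% of all genes. With 1 library left out, the Nrg2 change went as low as -6.35 against WT and -7.17 against PIN. All 3 had negative changes in PCa against WT, with a median of -1.80 beside 0.01 over all genes, whereas in PIN against WT 2 were positive and 1, that of Nrg4, was negative, with a median of 0.82. Nrg2 was at 4.0, 1.68 and 3.92 CPM in WT, 6.62, 4.48 and 5.91 in PIN and 0.901 and 0.0343 in PCa, a change of -2.76 ± 1.06 in PCa against WT (edgeR adjusted p = 0.142). Nrg4 was at 1.18 to 4.2 CPM in WT, 2.11 to 2.93 in PIN and 1.29 and 0.309 in PCa (-1.80, edgeR adjusted p = 0.187). Nrg1 was at 1.34 to 1.68 CPM in WT, 1.76 to 3.58 in PIN and 1.13 and 0.0686 in PCa, a change of -1.29 in PCa against WT (edgeR adjusted p = 0.425).

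Of 11 genes for the shedding and trafficking of the ligands, 10 were tested, Cnih1 having no row in the table. Adam9, a membrane metalloprotease, was lower in PCa, at 131 and 123 CPM against 201 to 294 in WT (-1.04 ± 0.26, n = 2 and 3, edgeR adjusted p = 0.0465). It was the only gene of the list that edgeR called in PCa against WT, or 1 of 10 tested beside 8.54% of all genes. Tmed10, a cargo receptor of the early secretory pathway, was called lower in PCa against PIN, at 173 and 210 CPM against 396 to 433 (-1.10 ± 0.22, edgeR adjusted p = 0.0346). This was edgeR's 1 call of the list there, beside 5.72% of all genes. Rhbdl2, a rhomboid protease, had 20.5 and 4.83 CPM in PCa 1 and 2, against 0.317 to 4.30 in WT (2.87, edgeR adjusted p = 0.159). DESeq2 called Rhbdl2 higher against WT and PIN (adjusted p = 0.0489 and 0.0214). In each of these comparisons DESeq2 called 2 genes of the list, beside 17.7% and 14.1% of all genes. The median of the list in PCa against WT was 0.03.

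All 16 receptor inhibitors and ubiquitin ligases were tested and edgeR and DESeq2 called none, beside 8.54% of all genes in edgeR's PCa against WT, with a median of 0.02 there and 3 genes at an unadjusted p under 0.05. The count rested on PCa 1, without which edgeR called 3 of the 16 against WT and 4 against PIN, beside 18.2% and 16.6% of all genes in that fit. The widest changes there were 1.19 for Errfi1, an inhibitor of the EGFR kinase (166 and 66.6 CPM in PCa, 27.3 to 92.6 in WT, edgeR adjusted p = 0.235), and -1.10 for Lrig1, which promotes receptor degradation (5.50 and 0.549 CPM in PCa, 4.35 to 9.89 in WT, edgeR adjusted p = 0.446). Without PCa 1 the Lrig1 change was -3.54 against WT (edgeR adjusted p = 0.0148).

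Of 34 adaptors and effector kinases, 33 were tested, and 1 was called higher and none lower in PCa against WT, beside 4.35% and 4.18% of all genes, with a list median of -0.17. Nck2, an adaptor that links receptors to the actin machinery, was at 9.29, 14.8 and 8.27 CPM in WT 1, 2 and 3 and at 59.7 and 22.6 in PCa 1 and 2 (1.93 ± 0.46, edgeR adjusted p = 0.0417). It was called higher against PIN as well (2.14, edgeR adjusted p = 0.0396), where Gab2, a docking adaptor, was called lower, at 32.8 and 18.4 CPM against 57.1 to 94.1 (-1.54 ± 0.32, edgeR adjusted p = 0.0381). These were 1 gene higher and 1 lower of the 33, beside 2.55% and 3.17% of all genes in that comparison. Mapk3, which encodes the kinase ERK1, was at 266, 236 and 226 CPM in WT 1, 2 and 3 and at 83.2 and 152 in PCa 1 and 2 (-1.04 ± 0.28, edgeR adjusted p = 0.0618). Upper-quartile scaling in edgeR, DESeq2 and limma-trend called Mapk3 lower against WT (adjusted p = 0.0476, 0.00626 and 0.0401). Of the list, DESeq2 called 3 genes against WT, beside 17.7% of all genes. The edgeR fit of only the 2 groups compared called 0, beside 0.952%.

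Of 24 genes for the early response and feedback of the pathway, 22 were tested and 1 was called in PCa against WT, beside 8.54% of all genes, and the same 1 against PIN, beside 5.72%. Against WT, DESeq2 called 5 of them, beside 17.7% of all genes. In the same comparison edgeR called 4 without PCa 2 (10.1% of all genes), 2 without PCa 1 (18.2%) and 0 in the fit of only the 2 groups compared (0.952%). Spry1, a feedback inhibitor of receptor tyrosine kinase signaling, was at 46.6, 44.7 and 42.8 CPM in WT 1, 2 and 3, 29.6, 41.2 and 30.5 in PIN 1, 2 and 3 and 12.9 and 4.56 in PCa 1 and 2, a change of -2.36 ± 0.44 against WT and -1.95 ± 0.43 against PIN (n = 2 and 3, edgeR adjusted p = 0.0229 and 0.0450). The list's median in PCa against WT was 0.54, with 15 changes positive and 7 negative. Ier3, an early response gene, was at 126 CPM in PCa 1 and 12.2 in PCa 2, against 9.24 to 10.5 in WT (2.82 ± 0.80, edgeR adjusted p = 0.0688). With 1 library left out, the Ier3 change against WT ranged from 0.32 to 3.70. Dusp5, a phosphatase of ERK, was at 5.34 and 1.23 CPM in PCa against 9.74 to 42.1 in WT (-2.71 ± 0.84, edgeR adjusted p = 0.0866). Ier3 and Dusp5 were among the 5 genes that DESeq2 called against WT (adjusted p = 0.00338 and 0.00458). No gene of the 5 lists was called in PIN against WT.

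Of edgeR's calls in these lists, that of Nck2 was made in 8 of 16 alternatives in both comparisons. Those of Spry1 were made in 11 against WT and 7 against PIN, and that of Adam9 in 5 against WT. Those of Tmed10 and Gab2 were made in 8 and 7 against PIN, and directions were unchanged in each case. Without PCa 1 the Nck2 change was 1.08 against WT and 1.29 against PIN.

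**Figure D4:**
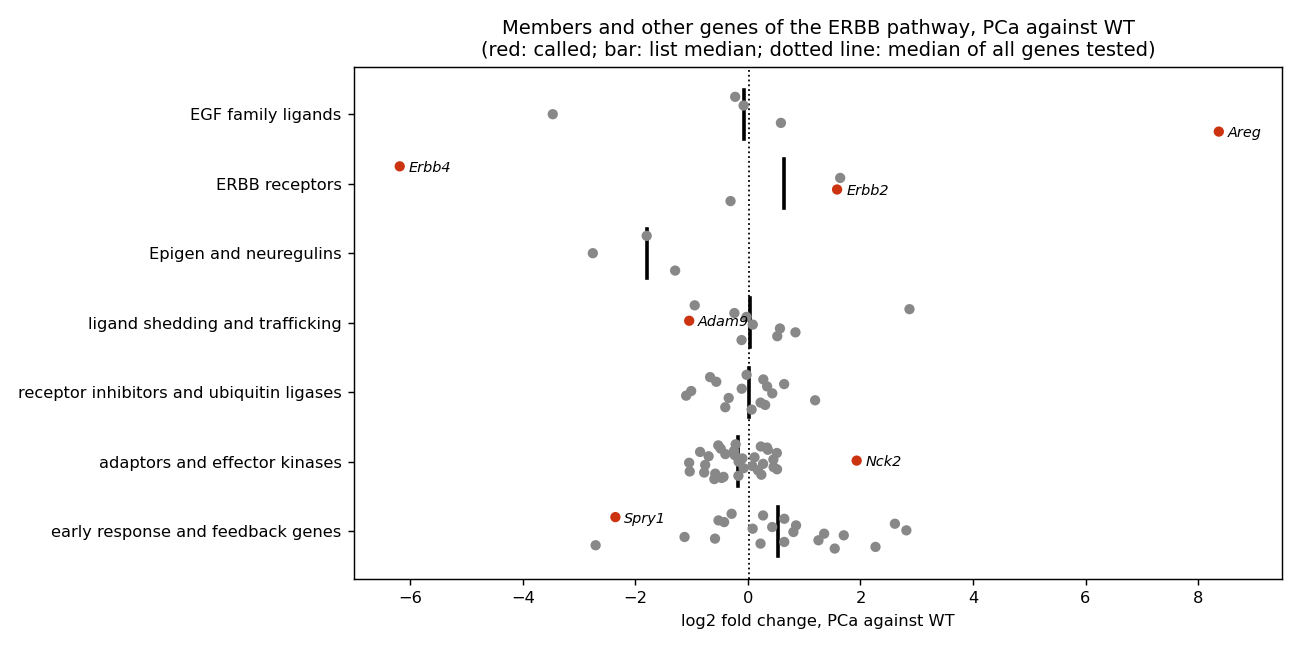
Log2 fold change in PCa against WT of the tested ligands, receptors and genes of 5 further ERBB pathway lists, 1 point per gene. Red marks called genes, bars are list medians and the dotted line is the median of all genes tested, 0.01. Of the 5 further lists, edgeR called only Adam9, Nck2 and Spry1, and the epigen and neuregulin list has the lowest median, -1.80.

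Markers of cell types also differed between the libraries. The 8 luminal markers summed to 11325 to 36395 CPM in WT, 13191 to 19762 in PIN and 5975 and 3708 in PCa, and of them Pbsn alone, the androgen-dependent probasin gene, was called lower in PCa against WT, at 8.53 and 60.8 CPM against 6552 or more in WT. The keratin gene Krt8 was at 453 and 333 CPM in PCa 1 and 2, within the WT range of 198 to 975, whose upper end was WT 2 alone, and above all PIN libraries, which were at 149 to 243 CPM (1.06 in PCa against PIN, edgeR adjusted p = 0.397). Krt18 and Krt19 changed by 0.66 and 1.30 against PIN, and Epcam and Cdh1 by -1.18 and 0.16, with no call in PCa against WT or PIN. The part of epithelial content in the levels of Erbb2 and Erbb3 was not tested. The 5 basal markers summed to 610 CPM in PCa 1 and 28 in PCa 2, with 169 to 242 in WT and 179 to 388 in PIN. The 6 leukocyte markers summed to 145 CPM in PCa 1 and 18.9 in PCa 2, with 31.9 to 69.7 in WT and 41.5 to 90.8 in PIN. The 5 endothelial markers summed to 66.6 to 91.3 CPM in WT, 83.8 to 103 in PIN and 99.5 and 93.2 in PCa, and of them Emcn was called lower against WT (-1.85, edgeR adjusted p = 0.0371), while the other 4 had positive changes that were not called, with Pecam1 at 1.41. The 5 urothelial markers summed to 223 to 271 CPM in WT, 247 to 369 in PIN and 66.5 and 141 in PCa, but went both ways: Upk2 was called higher in PCa against WT and PIN (4.15 and 4.97, edgeR adjusted p = 0.0428 and 0.0361), and Upk1b lower against PIN (-3.64, edgeR adjusted p = 0.0487).

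PCa 1 was the higher of the 2 tumors in the sums of 8 of the 9 marker lists, all but the urothelial one, and in Egf, Hbegf, Erbb2 and Erbb3, and the part of cell content in those levels was not tested. Smooth muscle markers, none of which was at 0 counts in any library, were called lower in PCa together with Erbb4 and Spry1. The 5 skeletal muscle markers summed to 65.6 to 198 CPM in WT, 54.1 to 263 in PIN and 13.1 and 3.02 in PCa, and of the 3 tested Acta1 and Ckm were called lower in PCa against both groups, while the changes of Mylpf, not called, were 0.96 against WT and 0.75 against PIN. The part of either tissue in these changes was not tested. The sum of 6 fibroblast markers was 744 CPM in PCa 1 and 282 in PCa 2, with 521 to 1025 in WT and 759 to 986 in PIN, and no fibroblast marker was called. The library numbers in the count table's header fell in 3 ranges, of WT 1, of WT 2 and WT 3, and of PIN and PCa. Nothing says what these numbers stand for, and any difference that goes with them cannot be told apart from the condition in comparisons with WT. PIN and PCa shared 1 range. Per the study, PIN lesions began at a younger age than PCa lesions. Any difference in age between the PIN and PCa libraries cannot be told apart from the lesion.

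**Figure D5:**
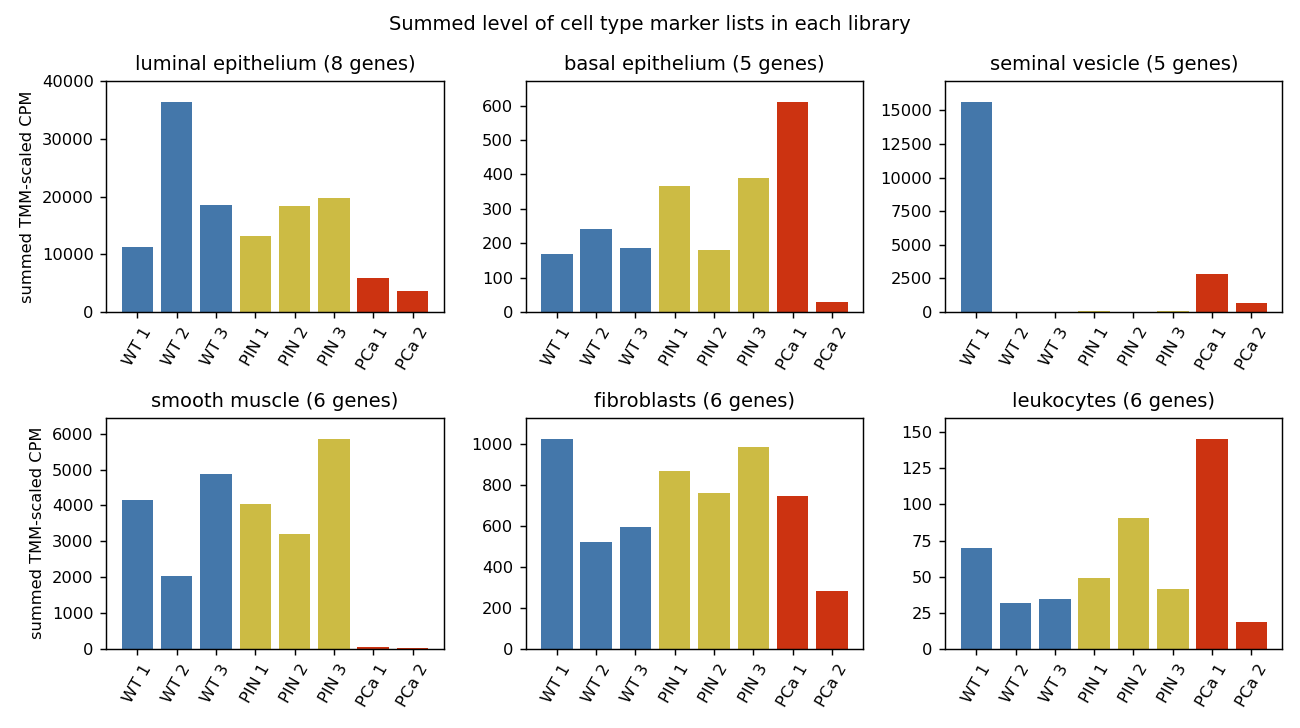
Summed TMM-scaled CPM of 6 cell type marker lists in the 8 libraries, with bars starting at 0 and axes that differ between panels. Smooth muscle markers are at 42.5 and 19.7 in PCa against 2021 or more elsewhere, seminal vesicle markers reach 15615 in WT 1, and basal and leukocyte markers are higher in PCa 1 than in PCa 2.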

How the data were processed

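The authors extracted RNA with a column kit, prepared libraries after depletion of ribosomal RNA and sequenced them with paired-end reads. The processing notes name cutadapt 1.9.1, HISAT2 2.1.0 and HTSeq 0.6.1, with mm9 as the genome. The deposited values are raw counts per gene. The strand setting and annotation are not given in the sources used here, so reads of overlapping antisense genes may be shared. The deposited exon length of each gene is another kind of value, used for TPM and CPM per kilobase.

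Counts were tested in R 4.3.3 with edgeR 4.0.16 (glmQLFit, TMM, CPM above 1 in at least 2 libraries, 1 model of 3 groups and 8 libraries, 5 residual degrees of freedom, common biological coefficient of variation 0.489). Calls needed a change over 1 on the log2 scale in either direction and a Benjamini-Hochberg adjusted p under 0.05. Standard errors come from the F statistic. The script was tested on simulated counts. Alternatives were upper-quartile scaling, DESeq2 1.42.0, limma-trend (limma 3.58.1), no filter, filterByExpr, only the 2 groups compared, no fold limit, a replicate block and leaving out each library. Total counts, 21751803 to 29730420, limit the precision of genes with few counts, and 2 PCa libraries limit every comparison with PCa.

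The members and the lists of pathway and marker genes were chosen with earlier results of these data known. Named are all members, the genes of each pathway list that were called or had the 2 widest changes in PCa against WT, and the 3 genes most like each of the 2 members with the widest range. Nrg1 and the marker genes named singly were added after their values were seen. The pathway lists and their counts leave out 1 gene, which is not reported here. EGF-like modules were read from the annotated transcripts of mm9 by the spacing of cysteine codons, and promoters from RefSeq.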

Additional observations from a re-analysis of the deposited data

How the results depend on the processing

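Erbb4 was called lower in PCa against WT and against PIN under all 16 alternatives, and no member was called in PIN against WT under any of them. In PCa against WT, where 3 members were called beside 8.54% of all genes, DESeq2 called 5 (Egf, Areg, Erbb2, Erbb3 and Erbb4), beside 17.7%. The fits of only the 2 groups compared and of the replicate block called 1 each (Erbb4), beside 0.952% and 2.94%. Leaving out 1 WT or PIN library gave 1 or 2 members, beside 2.48% to 7.3% of all genes. In PCa against PIN, where 2 were called, DESeq2 called the same 5, upper-quartile scaling, the fit of only the 2 groups and the replicate block 1 each, and leaving out 1 library gave 1 to 4. The Areg call was lost with only the 2 groups (adjusted p = 0.0634) and with the replicate block (0.117), and the Erbb2 calls with upper-quartile scaling (0.054 and 0.0607), only the 2 groups (0.151 and 0.0953), limma-trend (0.0529 and 0.0506), the block (0.0638 and 0.0694) and each library left out except PCa 2. The cause of these changes was not tested. Whether the replicate numbers pair the libraries is not stated. Deviations of same-numbered libraries correlated at -0.06 to 0.28 over 7 pairs and those of others at -0.28 to 0.16 over 14. These ranges overlap and the pairs share libraries, so they cannot decide whether same-numbered libraries belong together.

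Over all genes, PCa against WT gave 1198 calls, 130 with only the 2 groups, 413 with the block and 2487 with DESeq2, and 347 to 2477 with 1 library left out. PCa against PIN gave 803, with 151 in the block, 388 with only the 2 groups and 1984 with DESeq2, and 78 to 2251 with 1 library left out. Of its calls 44.6% were higher in PCa, against 18.5% in the block fit and 8.97% to 23.1% without 1 PIN library.

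Where signs turned, the change was not called in the report, though DESeq2 and the fit without PCa 2 called Ier3 in PCa against PIN. In PIN against WT, limma-trend gave 0.034 for Errfi1, 0.015 for Nrg4 and 0.11 for Rhbdl2, and the replicate block 0.089 for Nrg4 and 0.059 for Rhbdl2. In PCa against PIN, limma-trend gave -0.29 for Hbegf, and the replicate block -0.16 for Btc, -0.060 for Hbegf and -0.13 for Tgfa. Upper-quartile scaling gave 0.057 for Hbegf in PCa against WT. Leaving out 1 library moved the PIN against WT change over -0.76 to 0.14 for Tgfa, -0.83 to 0.18 for Hbegf, -0.35 to 0.26 for Egfr, -0.27 to 0.091 for Erbb2, -0.36 to 0.088 for Erbb3, -0.26 to 0.0089 for Adam9, -0.46 to 0.60 for Errfi1, -0.42 to 0.086 for Nck2, -0.51 to 0.27 for Nrg4 and -1.26 to 1.41 for Rhbdl2. Of these upper ends, 6 came without WT 2, those of Erbb2, Nrg4 and Rhbdl2 without WT 1 and that of Adam9 without PIN 2. In PCa against WT the ranges were -0.92 to 0.36 for Tgfa, -2.31 to 0.78 for Hbegf, -0.42 to 1.19 for Btc and -0.95 to 0.15 for Egfr, and in PCa against PIN -0.48 to 0.70 for Tgfa, -1.84 to 1.26 for Hbegf, -0.86 to 0.75 for Btc, -0.81 to 0.29 for Egfr and -0.20 to 3.17 for Ier3, in most cases with their ends at the fits without PCa 1 and without PCa 2. The Erbb2 share difference ranged from -2.24 points without WT 2 to 5.42 without WT 1.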
